A study of Mus musculus with 4 samples.

Results

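The Zfp genes, the mouse genes for zinc finger proteins named by a number, were examined in the livers of WT and DDI2-KO mice. Members were the protein-coding genes with a symbol of Zfp followed by a digit and a mean over the 4 libraries of at least 2 CPM (1 CPM is 1 read per 1000000 reads on genes). They were thus chosen by their level over both genotypes. The rule gave 251 members of 394 such genes in the annotation and of 48709 gene identifiers counted. The remaining 143 lay under 2 CPM, and 33 of them had no read. Just inside the minimum stood Zfp873, Zfp251 and Zfp3, each at 2.02 CPM, and just outside it Zfp791 and Zfp472 at 1.91 CPM and Zfp273 at 1.88 CPM.

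Liver mRNA of untreated adult mice was sequenced as 2 WT and 2 DDI2-KO libraries to find genes that depend on DDI2, an aspartic protease that activates the transcription factor NRF1. Every mouse is labelled as strain C57BL/6. The WT mice were littermates that carried floxed Ddi2 without Cre, and the DDI2-KO mice carried the same floxed alleles with Cre under the albumin promoter, which is active in hepatocytes, so the other liver cells keep the gene. The study used mice of both sexes at 6 to 12 weeks and the labels give neither the sex nor the age of a library, nor whether each library is 1 mouse, so p-values measure the spread between these libraries.

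Most Zfp proteins carry tandem C2H2 fingers, short loops in which a pair of cysteines and a pair of histidines hold a zinc ion and which read DNA bases. Many begin with a KRAB domain, which recruits the corepressor TRIM28 (KAP1), and TRIM28 in turn brings the methyltransferase SETDB1 and heterochromatin proteins that silence transposable elements and imprinted loci. Genes for KRAB zinc finger proteins arose by repeated duplication, so they lie in clusters and resemble one another. A minority of genes with the Zfp name encode CCCH fingers instead, as in Zfp36 (tristetraprolin), which binds AU-rich elements in mRNA and promotes decay.

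By patterns searched in the annotated coding sequences, 104 members held a KRAB pattern, 124 held at least 3 C2H2 fingers without a KRAB pattern, and 23 held fewer than 3 C2H2 fingers. The KRAB members had a median of 11.5 fingers. The coding bases of the KRAB pattern are shown for the 2 KRAB members that passed the test below, with the codons of its tryptophan and tyrosine in capitals. They lie on the minus strand at chr19:61127469-61127531 and on the plus strand at chr17:21720977-21721039 of GRCm38, each within 1 exon.
Zfp950: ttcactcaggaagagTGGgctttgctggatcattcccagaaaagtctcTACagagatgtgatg
Zfp760: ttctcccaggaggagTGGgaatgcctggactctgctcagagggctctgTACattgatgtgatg

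For the 3 members that passed the test, the first C2H2 finger followed by a linker of the residues TGEKP or TGERP is shown with that linker. Fingers before it without such a linker would have been passed over. The codons of the zinc-binding cysteines and histidines are in capitals. The stretches lie in exons at chr19:61120254-61120331 on the minus strand, chr17:21722473-21722550 on the plus strand and chr8:110089009-110089086 on the plus strand.
Zfp950: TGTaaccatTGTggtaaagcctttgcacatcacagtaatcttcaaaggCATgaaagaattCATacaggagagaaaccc
Zfp760: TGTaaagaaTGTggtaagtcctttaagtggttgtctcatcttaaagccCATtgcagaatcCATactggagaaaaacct
Zfp612: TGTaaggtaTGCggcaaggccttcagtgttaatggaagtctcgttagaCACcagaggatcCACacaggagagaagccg

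By contrast, the first CCCH finger of Zfp36, the member with the highest level, holds 3 cysteine codons and 1 histidine codon, again in capitals, on the minus strand at chr7:28378158-28378217.
Zfp36: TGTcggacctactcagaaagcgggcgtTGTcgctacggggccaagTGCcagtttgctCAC

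Depth on annotated genes was 34109018 and 31532247 reads for the WT libraries and 25582344 and 22501208 reads for the others. Ddi2 itself had a level of 141 and 123 CPM in WT and 157 and 164 CPM in DDI2-KO by label, which is a log2 difference of 0.28 ± 0.17 (SE) with an adjusted p of 0.349 in edgeR's quasi-likelihood test. The deposited value covers the whole gene and does not show whether the floxed part was removed, so the genotypes rest on the labels. Hepatocyte markers made up the liver as labelled, with a summed level of 158170 to 178326 CPM for 6 genes in WT. The summed level was 147918 to 150104 CPM in DDI2-KO, so the groups did not overlap. In bulk tissue, fewer cells of a type and less RNA per cell cannot be told apart.

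As a group, the Zfp members had lower values in DDI2-KO than in WT, but few of them passed the test alone. The median log2 fold change (DDI2-KO minus WT) was -0.23 over the 251 members, against -0.01 over the 13699 genes tested and 0.03 over the 10439 other protein-coding genes of at least 2 CPM. The fitted value was below 0 for 177 members and above 0 for 74. Adjusted over all genes tested, 3 of the 251 members fell, about the same share as over all genes (background 1.2%). The number that rose was 0 (background 1.33%), where 2.53% of all genes passed in either direction. The calls thus do not set the members apart from all genes. The count of members that fell was 0 without DDI2-KO replicate 1, 0 without WT replicate 1, 4 without WT replicate 2 and 7 without DDI2-KO replicate 2, where 2.4%, 1.1%, 1.46% and 4.41% of all genes passed in either direction. At an unadjusted p under 0.05 there were 49 members lower and 9 higher, against 11.5% and 12% of all genes.

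The libraries were compared without the model as well. Both DDI2-KO libraries lay below both WT libraries for 119 members (47.4%, background 27.7%) and above both for 32 members (12.7%, background 28%). For the other 100 members the groups overlapped. All 251 members passed the filter on low counts, and the lowest count of any member in a library was 28 reads. The summed share of all gene reads that members took was 0.282% and 0.269% in WT against 0.253% and 0.287% in DDI2-KO, and the groups overlapped.

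The KRAB members had the lowest median of the 3 classes. The median was -0.38 for the 104 KRAB members and -0.05 for the 23 with fewer than 3 C2H2 fingers. It was -0.18 for the 124 with at least 3 C2H2 fingers and no match to the KRAB pattern (the C2H2 class). Of the KRAB members, 80 had a value below 0. Both DDI2-KO libraries lay below both WT libraries for 55 (52.9%, background 27.7%) and above for 7 (6.73%, background 28%). The corresponding counts were 84, 57 (46.0%) and 18 (14.5%) in the C2H2 class. They were 13, 7 (30.4%) and 7 (30.4%) in the remaining class, near the background. These differences between classes were not tested. Some members of the C2H2 class matched a looser KRAB pattern, written after the matches had been seen. By that pattern 127 members were KRAB members, with a median of -0.36 and 3 that fell (background 1.2%). The 124 members without it had a median of -0.15 and 0 that fell (background 1.2%). The KRAB members took 0.0721% and 0.0619% of reads in WT and 0.0495% and 0.0612% in DDI2-KO, so here too the groups overlapped.

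**Figure D1:**
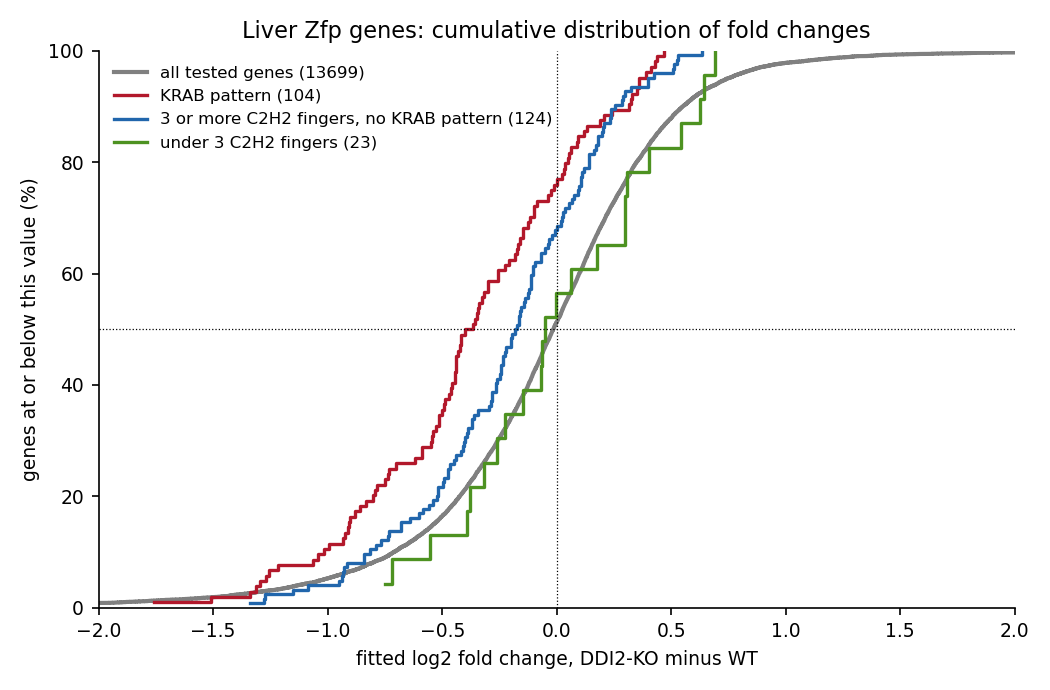
Cumulative distribution of the fitted log2 fold change (x axis, DDI2-KO minus WT) as the percentage of genes at or below each value (y axis) for 104 KRAB members, 124 other C2H2 members, 23 members with fewer than 3 C2H2 fingers and all 13699 tested genes. The KRAB curve crosses 50% at -0.38 and the curve of all genes at -0.01.

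The size of the shift differed between the 2 libraries labelled DDI2-KO. The median deviation of the KRAB members from their mean over the libraries (log2 of CPM plus 0.5) was 0.26 and 0.06 in WT replicates 1 and 2, and -0.27 and -0.01 in DDI2-KO replicates 1 and 2. DDI2-KO replicate 1 was the lowest of the 4 libraries for 66 KRAB members (63.5%) and replicate 2 for 16 (15.4%), while over all tested genes these shares were 27.0% and 26.7%. Without DDI2-KO replicate 1 the KRAB median was -0.18 and the gap to the C2H2 class shrank from -0.20 to -0.037, with 71 KRAB members still below 0. Without DDI2-KO replicate 2 the KRAB median was -0.47. Over all members the median was -0.15 without DDI2-KO replicate 1 and -0.31 without replicate 2, against -0.02 and -0.01 over all tested genes.

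**Figure D2:**
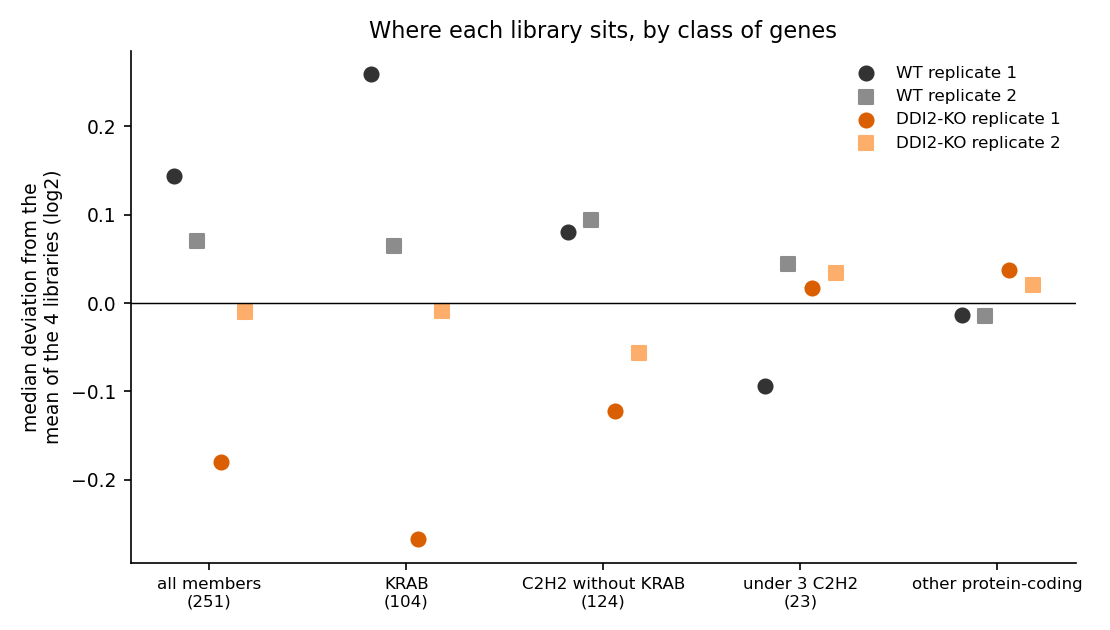
Median deviation of each library from the mean of the 4 libraries (y axis, log2 of CPM plus 0.5) for classes of members and for the other protein-coding genes (x axis), 1 point per library. DDI2-KO replicate 1 sits at -0.27 for the KRAB members and DDI2-KO replicate 2 at -0.01, while WT replicate 1 sits at 0.26.

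Base composition moved with these values. The median GC content of the longest transcript was 40.9% for KRAB members, 44.3% for all members and 49.4% for all tested genes. Members were split by GC content into 3 ranges of near equal numbers of members. In the lowest range (up to 41.1%), the median log2 fold change was -0.49 over 84 members and -0.16 over 908 other protein-coding genes. In the middle range (up to 48.6%) it was -0.15 over 83 members and 0.06 over 3824 other genes, and in the highest range -0.11 over 84 members and 0.05 over 5678 other genes. Members thus had the lower median in each range, but the 13 KRAB members of the highest range did not, at 0.05, with 6 values below 0 and 7 above. The Spearman correlation between log2 fold change and GC content was 0.36 over the 251 members, a description across genes that share 4 libraries. It was 0.05 over all tested genes and 0.01 over the other protein-coding genes of at least 2 CPM. With offsets for transcript length and GC content the members' median was -0.11. Past the threshold were then 7 members lower and 1 higher, with a background of 5.63%. The KRAB median was -0.26 and that of the C2H2 class -0.06 with these offsets, and the gap between them was -0.20 with and without offsets. The part of base composition in the result was not tested further.

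**Figure D3:**
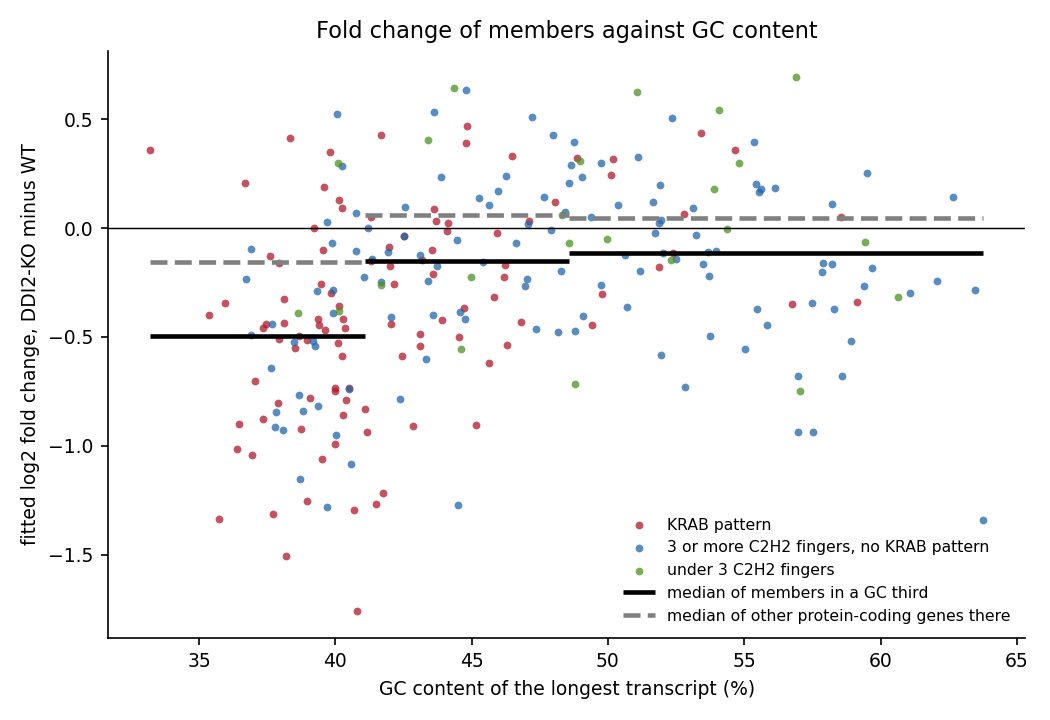
Fitted log2 fold change of each member (y axis, DDI2-KO minus WT) against the GC content of its longest transcript in percent (x axis), 1 point per member coloured by class. Black lines give the medians of members in 3 GC ranges (-0.49, -0.15 and -0.11) and dashed grey lines those of other protein-coding genes in the same ranges (-0.16, 0.06 and 0.05).

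Other measures of the libraries differed between the genotypes too. The nuclear RNAs Malat1 and Neat1 fell, with log2 fold changes of -1.29 (adjusted p = 0.0224) and -1.78 (adjusted p = 0.0438) in edgeR's quasi-likelihood test. Reads on no annotated gene, per 100 reads on genes, were 5.11 and 4.70 in WT and 2.53 and 3.65 in DDI2-KO, and were thus lowest in DDI2-KO replicate 1. Of 7 lists of liver cell markers, 1 gene of the sinusoidal endothelial list passed the test (background 2.53%). The summed levels of 8 Kupffer cell and macrophage markers (680 to 790 CPM in WT, 763 to 917 in DDI2-KO), 7 lymphocyte markers (9.87 to 12.4 and 8.81 to 10.4) and 3 neutrophil markers (1.46 to 2.2 and 2.13 to 2.36, with Ly6g at 0) overlapped. Those of 6 stellate markers (452 to 495 and 428 to 449) and 5 bile duct markers (52.8 to 56.4 and 68.7 to 70.4) did not, nor did those of the 6 hepatocyte markers given above. The 6 sinusoidal endothelial markers gave 357 to 393 and 345 to 362 CPM. The part of these measures in the members' values was not tested.

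The 3 members that fell, about the share expected from all genes (background 1.2%), are described singly. Each carried a long array of fingers. Zfp950 (ENSMUSG00000074733, chr19:61053840-61140840, minus strand), a KRAB gene with 17 fingers, had 15.2 and 11.1 CPM in WT and 4.33 and 6.09 CPM in DDI2-KO, from 511, 343, 112 and 140 reads. The groups were apart, with means of 13.2 ± 2.90 and 5.21 ± 1.25 CPM (SD, n = 2 each). Its log2 fold change was -1.34 ± 0.25 (SE), with an adjusted p of 0.0437 in edgeR's quasi-likelihood test.

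Zfp760 (ENSMUSG00000067928, chr17:21707741-21725636, plus strand), a KRAB gene with 16 fingers, had 10.2 and 6.25 CPM in WT and 2.74 and 3.05 CPM in DDI2-KO. Both DDI2-KO libraries lay under the lower WT library, and the WT libraries differed more from each other than the DDI2-KO libraries did. Its log2 fold change was -1.51 ± 0.29 (SE), with an adjusted p of 0.0438 in edgeR's quasi-likelihood test.

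Zfp612 (ENSMUSG00000044676, chr8:110079746-110092741, plus strand) had 16 fingers and no match to the KRAB pattern, although it matched a looser KRAB pattern that was written after the matches had been seen. Its level was 5.50 and 7.28 CPM in WT and 2.67 and 2.61 CPM in DDI2-KO, with a log2 fold change of -1.27 ± 0.25 (SE) and an adjusted p of 0.0450 in the same test. The DDI2-KO libraries were nearly equal and both lay under WT. All 3 calls stood close to the threshold. Over 15 alternatives Zfp950 passed in 10, with an adjusted p between 6.59e-05 and 0.166, Zfp760 in 9 (8.02e-05 to 0.189) and Zfp612 in 8 (0.00142 to 0.177), and each fitted value stayed below 0.

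The 250 bases before the annotated start of Zfp950 and Zfp760 are shown, from RefSeq for GRCm38.p6, because these KRAB genes changed in the same direction from different chromosomes. Capitals mark CCAAT, the letters bound by the factor NF-Y, on either strand. The stretches are chr19:61140841-61141090 (minus strand) and chr17:21707491-21707740 (plus strand).
Zfp950: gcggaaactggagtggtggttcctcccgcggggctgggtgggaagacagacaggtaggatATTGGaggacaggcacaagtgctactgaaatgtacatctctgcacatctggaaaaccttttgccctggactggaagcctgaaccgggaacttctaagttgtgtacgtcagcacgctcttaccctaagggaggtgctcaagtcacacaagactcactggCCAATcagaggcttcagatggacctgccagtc
Zfp760: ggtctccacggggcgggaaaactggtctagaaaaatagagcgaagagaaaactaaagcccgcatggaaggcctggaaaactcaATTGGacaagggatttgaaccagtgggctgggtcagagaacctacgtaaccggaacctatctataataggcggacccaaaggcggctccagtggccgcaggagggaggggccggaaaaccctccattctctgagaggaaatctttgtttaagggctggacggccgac

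Of the 208 members with a promoter in the table, 100 (48.1%) held CCAAT on either strand in these 250 bases. So did 56 of 92 KRAB members (60.9%) and 34.5% of 27025 genes. The 27025 genes were not matched to the members by gene type, level in liver or base composition, and 1 promoter per gene was used. The letters TGACNNNGC, the core of the antioxidant response element that NRF1 binds, were in 28 member promoters (13.5%), in 14 KRAB member promoters (15.2%) and in 10.1% of all promoters, searched on either strand and separately from CCAAT, so that matches may share bases. Zfp760 held 1 match to them and Zfp950 0. These are matches of letters and say nothing of binding.

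Other large negative values did not pass the test. Zfp970, a KRAB gene on chromosome 2, had the lowest fitted value of all members, -1.76 ± 0.42 (SE), with 11.4 and 5.63 CPM in WT, 3.21 and 1.78 CPM in DDI2-KO and an adjusted p of 0.0711. Of its 50-base stretches, 52.2% also occurred in transcripts of other genes, so reads from them may have been set aside as not unique. Zfp579 had 3.66 and 3.53 CPM in WT and 1.31 and 1.52 CPM in DDI2-KO, -1.34 ± 0.29 (SE) with an adjusted p of 0.0518. It was the exception in base composition, with a GC content of 63.8%. Zfp40 had 4.43 and 2.2 CPM in WT and 1.2 and 1.48 CPM in DDI2-KO, and its WT libraries differed from each other about as much as the groups did. Zfp809, a KRAB protein known to silence murine leukaemia viruses, had 10.4 and 6.80 CPM in WT and 4.75 and 4.40 CPM in DDI2-KO, -0.91 ± 0.26 (SE) with an adjusted p of 0.0920. No p in this paragraph passed 0.05 after adjustment in edgeR's quasi-likelihood test.

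Members above their WT level in both DDI2-KO libraries belonged mostly to other classes. The largest such value was that of Zfp593, a gene with 1 C2H2 finger whose protein acts in ribosome assembly, with 1.67 and 2.46 CPM in WT and 3.86 and 2.78 CPM in DDI2-KO (0.69 ± 0.32 SE, adjusted p = 0.239). Zfp821 had 1.73 and 1.59 CPM against 2.74 and 2.44 CPM (0.64 ± 0.30 SE, adjusted p = 0.233). Zfp410, a C2H2 activator known for its hold on Chd4, had 10.6 and 12.4 CPM against 17.5 and 18.2 CPM (0.63 ± 0.18 SE, adjusted p = 0.0909), and Zfp740 had 26.1 and 31.6 CPM against 44.7 and 44.3 CPM (0.63 ± 0.17 SE, adjusted p = 0.0789). Chd4 had 67.8 and 75.8 CPM in WT and 80.4 and 91.6 CPM in DDI2-KO, a difference of 0.26 with an adjusted p of 0.375. No member passed the test upwards. The KRAB class reached at most 0.47, the value of Zfp87.

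**Figure D4:**
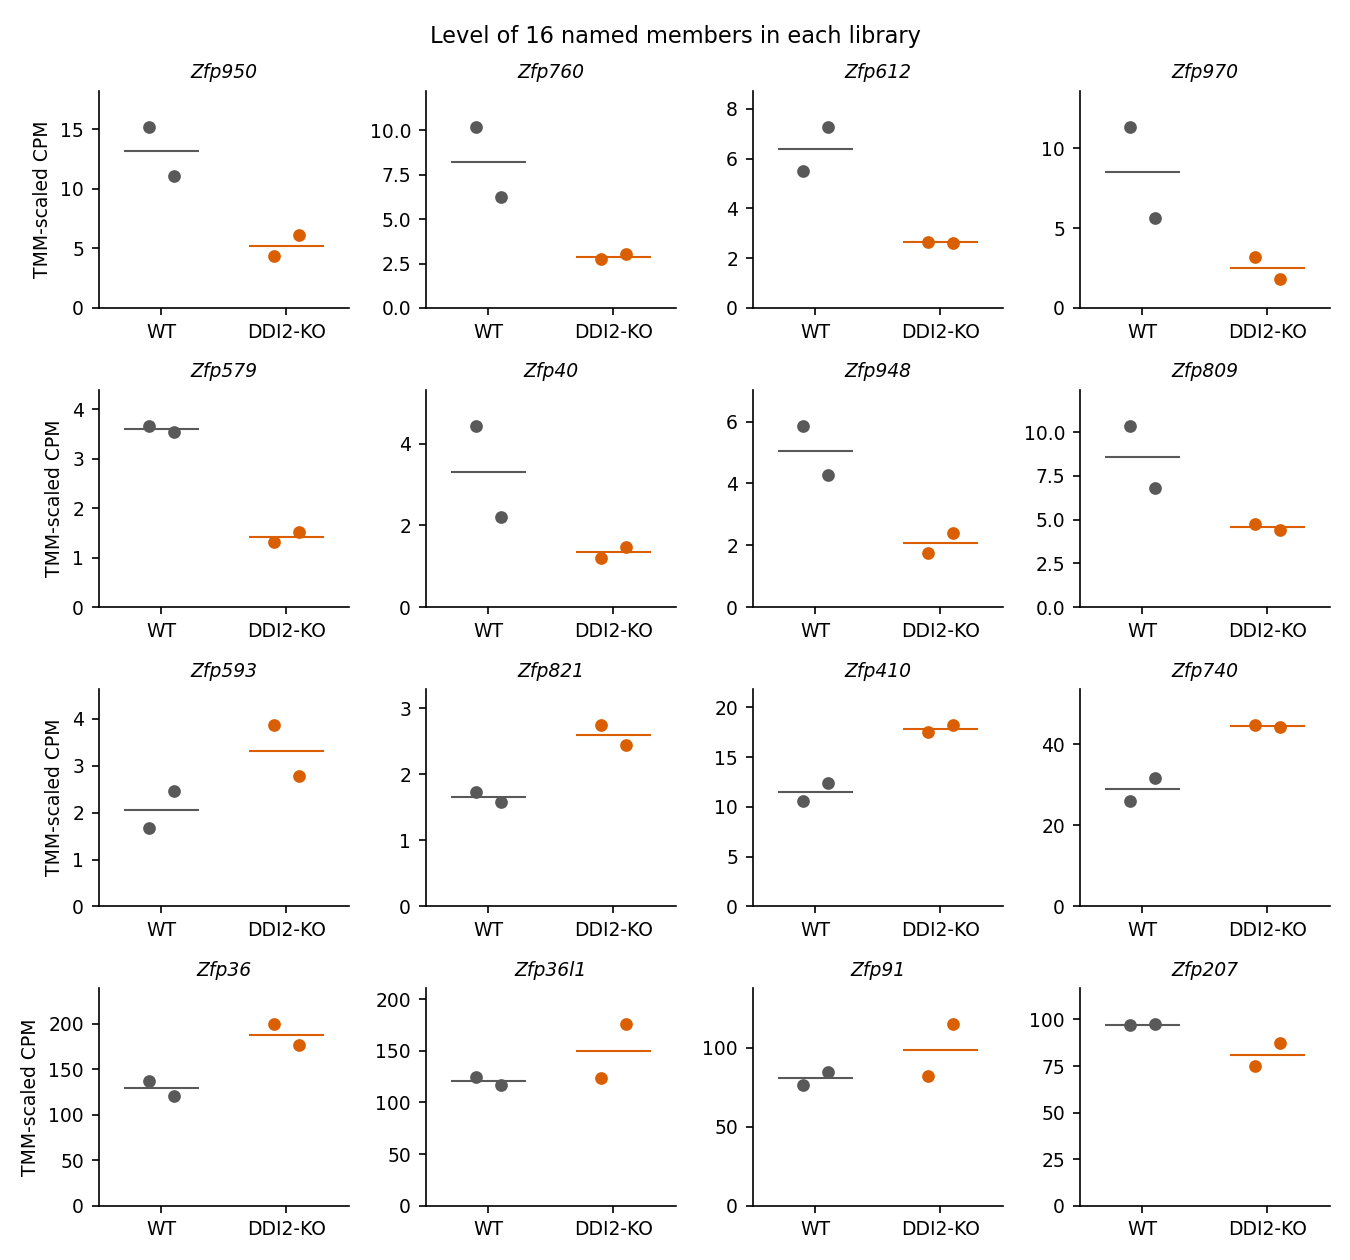
TMM-scaled CPM (y axis, from 0, own scale in each panel) of 16 members in the 2 WT libraries (grey) and the 2 DDI2-KO libraries (orange), 1 point per library, with a line at each group mean (x axis, genotype). The groups do not overlap for Zfp950, Zfp760 and Zfp612, and overlap for Zfp36l1 and Zfp91.

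Levels compared per kilobase of the longest transcript were highest in 2 of the mRNA-binding CCCH genes. Zfp36 stood first with a mean of 56.7 CPM per kilobase and Zfp36l1, its paralogue, second with 45.2, followed by Zfp207 (27.2), Zfp91 (16.2) and Zfp706 (14.5). The third gene of that family, Zfp36l2, stood at 7.5. Zfp740, Zfp106 and Zfp395 were the remaining members among the 8 of highest CPM, at 8.65, 8.67 and 10.03 CPM per kilobase. The median member stood at 1.52 CPM per kilobase.

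Zfp36 had 137 and 121 CPM in WT and 199 and 177 CPM in DDI2-KO, so both DDI2-KO libraries were above both WT libraries. The log2 difference was 0.54 ± 0.17 (SE), with an adjusted p of 0.115. Zfp36 is induced with the immediate early genes. Of 14 of these listed, 13 were tested, with a median of 1.42. Values were above 0 for 10 and below 0 for 3, namely Myc (-0.99), Klf6 (-0.51) and Ier3 (-0.41). The DDI2-KO libraries differed widely in some, as in Egr1, with 27.0 and 41.4 CPM in WT and 146 and 43.2 CPM in DDI2-KO. The test was passed by 4 upwards (background 1.33%) and 0 downwards (background 1.2%). Those that rose were Fos (2.66), Dusp1 (2.14), Btg2 (1.64) and Jun (1.42) in edgeR's quasi-likelihood test, and 2 of the list passed without WT replicate 2. The paralogues did not stand apart in the same way. Zfp36l1 had 125 and 117 CPM in WT and 124 and 175 CPM in DDI2-KO, and Zfp36l2 had 20.5 and 27.0 CPM in WT and 26.7 and 31.7 CPM in DDI2-KO, with overlapping groups for both.

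Among members on a list of Zfp genes with a described function, values were mixed. Of the 26 genes listed, 23 were members, 15 with a value below 0 and 8 above, with a median of -0.14, and none passed the test. Below WT in both DDI2-KO libraries were 9 of the 23 (background 27.7%), Zfp809 included, among which Zfp362 had the lowest value, with 8.27 and 7.22 CPM in WT and 4.21 and 3.87 CPM in DDI2-KO (-0.94 ± 0.22 SE, adjusted p = 0.0638). Next after Zfp809 came Zfp292 at -0.74, but its DDI2-KO libraries (17.3 and 14.9 CPM) stood near WT replicate 2 (17.9 CPM) and away from WT replicate 1 (35.9 CPM). The transcription activator Zfp143 was at -0.42, Zfp148 at -0.39, Zfp326 at -0.39, Zfp703 at -0.32, Zfp207 (BuGZ, a spindle protein) at -0.26 and Zfp260 at -0.25. The 3 above WT in both DDI2-KO libraries (background 28%) were Zfp36, Zfp410 and Zfp687 (0.40).

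For the others of this list, and for Zfp395, the groups overlapped. Zfp638 (-0.38, 28.0 and 19.8 CPM in WT, 23.4 and 13.3 in DDI2-KO) and Zfp335 (-0.27) had the lowest of these values, and Zfp638 turned to 0.03 with length and GC offsets. Zfp384 (-0.14), Zfp395 (-0.0048), Zfp106 (0.02) and 4 further genes of the list were within 1 SE of 0, and Zfp395 and Zfp106 changed sign under some alternatives. Zfp91, an E3 ubiquitin ligase, was at 0.29 ± 0.20 (SE). Of the 8 members of highest level, Zfp706 (59.3 and 50.9 CPM in WT, 66.5 and 79.4 in DDI2-KO) was also above WT in both libraries, at 0.40 with an adjusted p of 0.203.

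Neighbours were then followed along the chromosomes, by joining Zfp genes whose starts lay within 250 kb. The 394 genes formed 31 clusters of at least 3 genes, which held 126 members, 79 of them KRAB members. The median log2 fold change was -0.26 for members in clusters and -0.20 for the 125 outside them, a small gap next to that between classes. Of the 11 clusters with at least 5 members, 9 had a median below 0 and 2 above, between -0.73 and 0.11. The lowest was that at chr7:4915217-5053723, with 5 members, 0 of them KRAB, and a median GC content of 58.9%. Both DDI2-KO libraries were below WT for all 5 (background 27.7%). The clusters described below on chromosome 17 had a median GC content of 38.5% and 40.0%, and that on chromosome 13 of 39.0%.

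The largest cluster, at chr17:21383748-22456689, held 15 members, each with a KRAB pattern, of 18 annotated Zfp genes. Of these, 14 had a value below 0, and the median was -0.55. Both DDI2-KO libraries were below WT for 10 (background 27.7%) and above for 0 (background 28%). Zfp760 had the lowest value. Its neighbour Zfp948 was at -1.30 (5.86 and 4.27 CPM against 1.74 and 2.39 CPM, adjusted p = 0.0606), while Zfp983, which lies between them, was the exception at 0.35 (4.46 and 3.07 CPM against 3.86 and 5.79 CPM). At the ends of the cluster Zfp54 was at -0.75 and Zfp946 at -1.04, and the next genes from the start, Zfp51 and Zfp53, were at -0.55 and -0.45. The median log2 ratio of DDI2-KO replicate 1 to replicate 2 was -0.54 in this cluster, about the size of the difference between the genotypes. Without DDI2-KO replicate 2 the cluster's median was -1.07, and without replicate 1 it was -0.37.

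A second cluster on the same chromosome, chr17:32765496-33394641, held 9 members, all KRAB, and all 9 had values below 0, with a median of -0.44. Both DDI2-KO libraries were below WT for 7 of them (background 27.7%). Zfp101 was lowest at -1.27 (7.44 and 4.69 CPM against 2.05 and 3.0 CPM, adjusted p = 0.0720), followed by Zfp955a at -0.99, of which 51.8% of stretches recurred in other genes, chiefly Zfp955b. Zfp871 had 17.5 and 15.9 CPM against 10.04 and 10.05 CPM (-0.74 ± 0.18 SE, adjusted p = 0.0668). Over chromosome 17 as a whole 32 of 36 members had values below 0, with a median of -0.48.

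The cluster at chr13:67038596-67827002 held 14 members of 23 Zfp genes, 7 with the KRAB pattern, and had a median of -0.44, with 12 below 0. Its values varied along the chromosome. Zfp729b and Zfp729a, adjacent genes with 30 and 27 fingers, were at -0.93 and -1.06 with adjusted p of 0.0613 and 0.0516 in edgeR's quasi-likelihood test, and 40.8% and 13.6% of their stretches recurred in other genes. Zfp729a had 6.28 and 6.64 CPM in WT and 3.13 and 3.05 CPM in DDI2-KO. Zfp759, first in order, was at -1.15. In the middle of the cluster Zfp429 (0.43) and Zfp87 (0.47) had values above 0, and DDI2-KO replicate 2 alone was high in Zfp429 (2.94 and 2.88 CPM in WT, 2.86 and 5.0 in DDI2-KO), whose value was -0.02 without that library.

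The cluster at chr7:29768552-30169750, with 10 members of 15 Zfp genes, had a median of -0.18, with 6 members below 0 and 4 above. Both DDI2-KO libraries lay below WT for 5 members (background 27.7%), namely Zfp420 (-0.79), Zfp146 (-0.47), Zfp74 (-0.42), Zfp260 (-0.25) and Zfp27 (-0.20). They lay above WT for 2 (background 28%), of which Zfp383 had the higher value (0.39). Zfp568, a KRAB gene known to repress placental Igf2 transcription, had 15.2 and 13.01 CPM in WT and 12.5 and 16.4 CPM in DDI2-KO, and differed by 0.03 ± 0.20 (SE). Chromosome 7 held the most members, 57, with a median of -0.20. Medians were above 0 on chromosomes 15 (9 genes, 0.21), 12 (5 genes, 0.31), 16 (5 genes, 0.07), 10 (3 genes, 0.21) and 3 (3 genes, 0.098). They were below 0 on the other chromosomes with members.

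**Figure D5:**
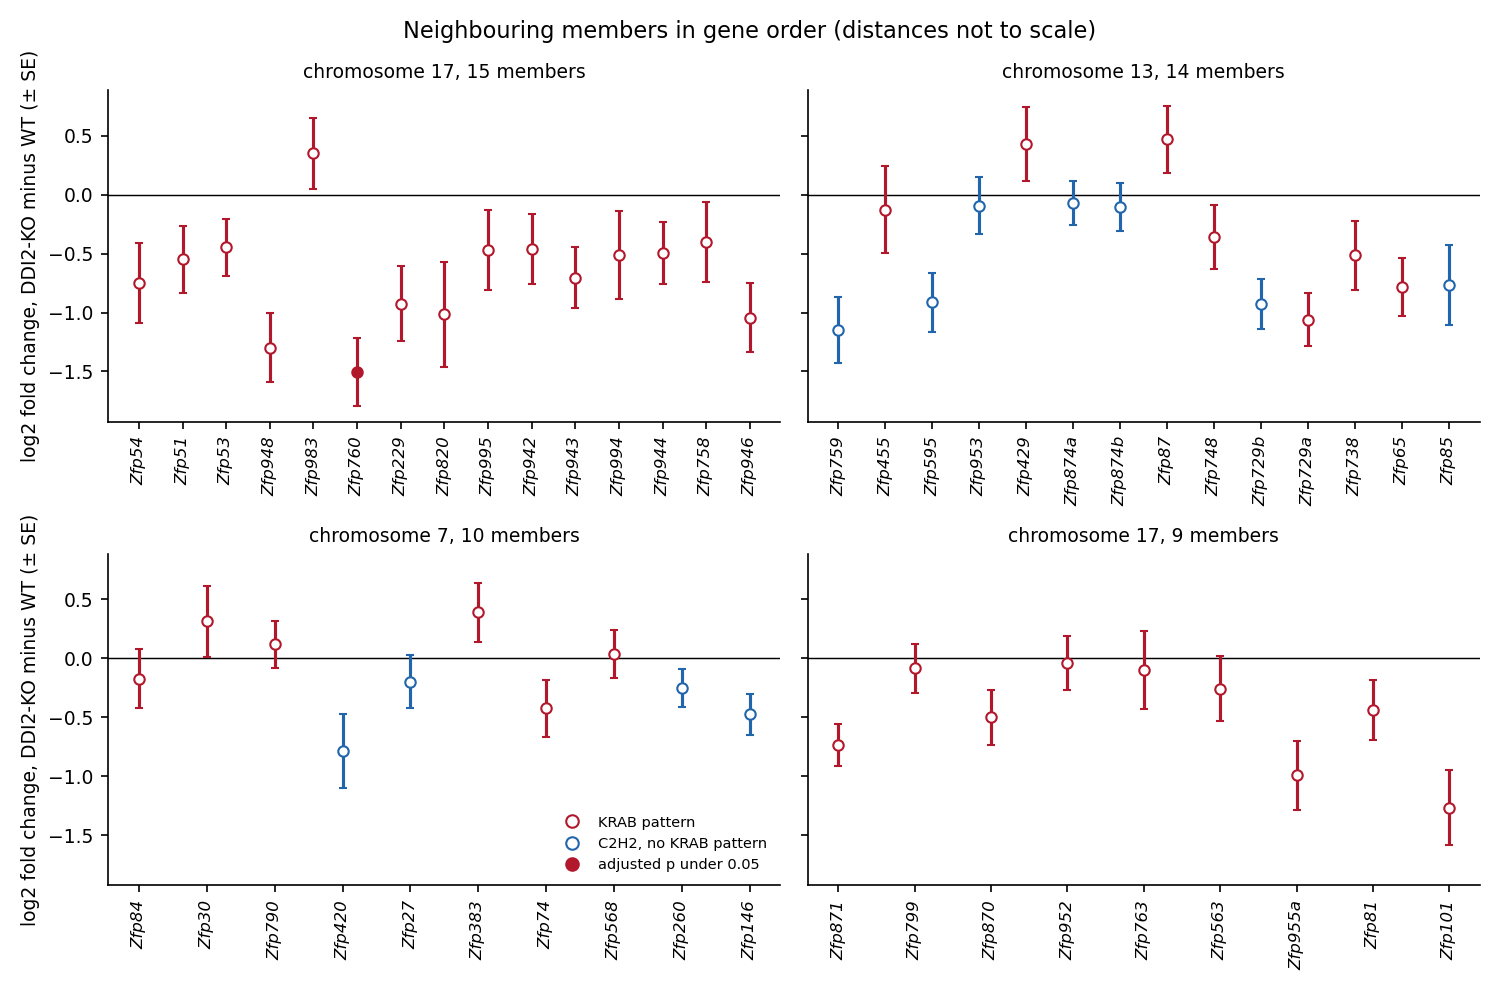
Fitted log2 fold change with its SE (y axis, DDI2-KO minus WT) for the members of the 4 largest clusters in gene order (x axis, not to scale), red for KRAB members, blue for C2H2 members without a KRAB pattern, filled where the adjusted p was under 0.05. On chromosome 17 the values lie below 0 for 14 of 15 and 9 of 9 members, and on chromosome 7 for 6 of 10.

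The sequence resemblance of these genes may bear on their counts. Of the 251 members, 39 had more than 10% of their 50-base stretches in transcripts of other genes, and 26 of these were KRAB members. Without them the KRAB median was -0.35 over 78 genes, and that of all members -0.20 over 212. Reads whose alignment was not unique were set aside by the counting. Per 100 reads on genes they numbered 65.8 and 51.8 in WT and 49.2 and 47.3 in DDI2-KO. The groups did not overlap, and WT replicate 1 had the most. The part of these reads in the members' values was not tested. Exons of 64 members overlapped a gene on the opposite strand, among them Zfp36, Zfp410 and Zfp740, and exons of 22 overlapped another gene on the same strand. The kit keeps strand, but the strand setting of the counting is not given in the sources used here.

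Other genes that share features with the members were set beside them. The 16 KRAB genes of at least 2 CPM with other names had a median of -0.18, with 13 values below 0 and 1 that fell (background 1.2%). The 79 Zfp genes under 2 CPM that were tested had a median of -0.46, with 65 below 0. A gene this low can pass the filter through 1 group alone, so these values are a description.

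Among 34 listed partners of KRAB silencing, the core factors did not pass the test. Trim28, the corepressor that binds KRAB domains, had 46.3 and 57.6 CPM in WT and 62.5 and 65.7 CPM in DDI2-KO (0.30 ± 0.17 SE, adjusted p = 0.311). Setdb1, its methyltransferase, had 29.7 and 31.4 CPM against 29.4 and 35.3 CPM (0.08 ± 0.17 SE, adjusted p = 0.807). Of the 32 tested partners, 18 had values below 0 and 14 above, with a median of -0.06. In edgeR's quasi-likelihood test 1 fell (background 1.2%) and 1 rose (background 1.33%), too few to set the list apart from all genes. Resf1, which acts with SETDB1 on retroelements, fell, with 19.1 and 9.77 CPM in WT and 4.71 and 4.57 CPM in DDI2-KO (-1.64 ± 0.32 SE, adjusted p = 0.0472). Rbbp4, a histone-binding subunit of chromatin complexes, rose, with 69.7 and 77.6 CPM in WT and 129 and 124 CPM in DDI2-KO (0.78 ± 0.16 SE, adjusted p = 0.0489). Neither passed without DDI2-KO replicate 1 or without WT replicate 1, and no partner rose without WT replicate 2. Fam208a, a subunit of the HUSH complex that works with SETDB1, was at -0.86, with an adjusted p of 0.0520.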

How the data were processed

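Deposited values were raw read counts per Ensembl gene, made by the authors without normalization. The submitters' processing notes name cutadapt 1.8, STAR 2.5.2b, HTSeq 0.6.1 and GRCm38, and the strand setting is not given in the sources used here. Libraries came from RNeasy extracts and the TruSeq Stranded mRNA kit. The counting program's summary lines were left out of library sizes. Symbols, coordinates and coding sequences were from GENCODE M21, which held 48349 of 48709 identifiers.

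Counts were fitted over all genes with edgeR 4.0.16 in R 4.3.3 (TMM, filterByExpr, glmQLFit with robust estimation, glmQLFTest, Benjamini-Hochberg adjustment over 13699 genes, threshold 0.05). The authors used a moderated limma test, which was an alternative here. Levels are TMM-scaled CPM, and 3 reads corresponded to 0.0880 to 0.133 CPM. This floor covers counting error only. On simulated counts for this comparison (13466 genes, 100 changed at each size), 49 were recovered at a log2 fold change of 1 and 94 at 2, with 5 false among 148 calls.

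The KRAB pattern was F, 2 any, E, D, K, Q or G, E or D, W, then within 20 residues L, V or I, Y, 2 any, V, T or I, M or L, searched in translated coding sequences in place of the RefSeq protein table foreseen, and C2H2 fingers were counted without overlap. The text names members past the threshold, the 5 largest values in each direction without overlap, the 8 of highest CPM, a list with described functions, members of the 4 largest clusters, and genes around the minimum. Zfp729a, Zfp948 and others of these clusters were picked from the clusters after their values were seen. The members and lists were chosen with earlier results of these data known. Classes, lists and clusters were described by counts and medians, with no set test. Alternatives were other scalings, filters and tests (DESeq2 1.42.0, limma 3.58.1), a replicate block, leaving out each library, length and GC offsets, membership minima of 1 and 5 CPM and other cluster distances. A looser KRAB pattern and the exclusion of members with shared stretches were added after seeing the data.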

Additional observations from a re-analysis of the deposited data

Results flagged for a closer look

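Reads that fitted more than 1 gene and were set aside as ambiguous, which enter no comparison above, were more frequent in the libraries labelled DDI2-KO. Per 100 reads on genes there were 3.49 in DDI2-KO replicate 1 and 3.66 in DDI2-KO replicate 2, above the 2.5 and 2.54 in the WT libraries. Exons of 22 members overlap another gene on the same strand and those of 64 a gene on the other strand, so reads of these members can be among those set aside. The part of these reads in the members' values was not tested.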

How the results depend on the processing

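With 2 libraries per group, single calls depended on the method. In place of 3 members, 13 passed with DESeq2 (7.25% of all its genes), 8 with length and GC offsets (5.63%), 5 with upper-quartile factors (2.31%) and 33 without a filter on low counts (7.32%). In all, 0 members passed with limma-trend, limma-voom or edgeR when estimation was not robust, where 60, 59 and 57 members had an unadjusted p under 0.05. Leaving out 1 library at a time gave 0 to 7 members (1.1% to 4.41% of all genes), with 0 and unadjusted counts of 63 without DDI2-KO replicate 1 and 24 without WT replicate 1. The lone library is then assumed to vary like the others. Of the KRAB partners, 1 passed with length and GC offsets, and 0 with limma-voom, limma-trend, the filter at a mean of 1 CPM and non-robust estimation, at 7, 7, 9 and 6 unadjusted. Without 1 library 0 to 3 of them passed, and 2 to 6 immediate early genes, of which 2 passed with limma-trend. The cause was not tested.

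The members' median stayed below 0 in all 17 alternatives and moved by more than the spread between libraries with length and GC offsets, to -0.11. That of the C2H2 class was then -0.0627, and -0.13 with library totals and -0.23 with upper-quartile factors. Leaving out 1 library gave -0.22 to -0.14 for the C2H2 class, -0.47 to -0.18 for the KRAB class, -0.26 to -0.037 for the gap between them, -1.07 to -0.37 for the larger chromosome 17 cluster, and 39 to 73 members above WT (36.8% to 40.2% of all genes). With a minimum of 5 CPM, 96 of 142 members had a value below 0, beside 177 of 251 at 2 CPM. The looser KRAB pattern, the removal of shared stretches and other cluster distances moved no median beyond that spread. The fit with the replicate number as a block gave 23 members (22 lower, 1 higher, 8.09% of all genes). The labels give same-numbered libraries no tie beyond the number. Across genes, their deviations from the group means correlated at 0.0588. With 2 libraries per group this cannot show whether same-numbered libraries shared a litter or a preparation.

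Some single genes changed sign. Zfp395 was at 0.0063 with DESeq2, 0.043 with library totals and 0.0055 without a filter, Zfp106 at -0.0011 with the filter at 1 CPM and -0.036 with upper-quartile factors, Zfp568 at -0.018 with upper-quartile factors, and Zfp638 at 0.029 with length and GC offsets. Without 1 library, Zfp395 ranged from -0.18 to 0.16, Zfp106 from -0.12 to 0.15, Zfp568 from -0.17 to 0.23, Zfp429 from -0.018 to 0.78 and Setdb1 from -0.047 to 0.21.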
